A study of Mus musculus with 110 samples.

Results

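The comparison described here is the effect of a zinc-finger protein (ZFP) on ribosome-bound RNA of astrocytes in the condition labelled NCAR, in the set of libraries whose titles begin with MG. Its members were chosen by sample title: the 4 pulldown (IP) libraries labelled NZ, NCAR with the ZFP, against the 4 labelled ND, NCAR with Delta, 8 of the 110 libraries of the series, across all genes. The study used cell-type-specific AAV to deliver either the ZFP or the control protein Delta, and pulled down HA-tagged ribosomes (RiboTag) with the RNA bound to them from mice labelled as strain R6/2 (Jax #006494), a label that the NCAR libraries carry too. The same set also holds 4 libraries each of R6/2 with Delta (RD) and R6/2 with the ZFP (RZ), and a further astrocyte IP set is titled n_ZFP_a_Rpl. The labels do not give the tissue, the age, the promoters, the cell that carried the ZFP in the MG set or the meaning of MG and NCAR. They number the replicates (1 to 4 in ND, 2 to 5 in NZ) without saying whether each is 1 animal or a pool, so p-values measure the spread between these samples, which may be technical.

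In the RiboTag method a chosen cell type holds a tagged ribosomal protein, so that RNA pulled down with the tag is enriched for messages under translation in those cells. Zinc-finger repressors aimed at mutant huntingtin join DNA-binding fingers that recognise the expanded CAG repeat to a repressor domain, and Delta serves here as the control protein. Astrocytes take up glutamate and potassium, supply lipids and secrete much of the extracellular matrix around neurons. The NZ against ND contrast measures what the ZFP does beside Delta in the NCAR condition, as a counterpart to the same contrast in R6/2.

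The ND libraries held 48002482 to 56270039 counts over genes and the NZ libraries 50577617 to 72623472. Levels are in CPM, read counts scaled to a common library total after TMM, a between-library scaling by trimmed means. The 20 astrocyte marker genes checked the label: in the ND libraries their median level was higher than in the ND neuron IP of the n_ZFP_n_Rpl set by 3.14 on the log2 scale (20 of 20 genes higher) and than in the unselected Input of the n_ZFP_a_Rpl set by 2.06 (20 of 20). Neuronal RNA was not depleted to the same extent: against that Input, 33 striatal projection neuron genes were at a median of -0.32 and 16 pan-neuronal genes at 0.45, so that the IP holds RNA of neurons beside that of astrocytes. Microglial genes were scarce, with 16 genes summing to 43.5 to 44.1 CPM in ND and 43.2 to 51.8 CPM in NZ. The pre-ribosomal RNA Rn45s took 0.105 to 0.314% of counts in ND and 0.0306 to 0.0881% in NZ, without overlap. In RD, also with Delta, it took 0.0409 to 0.0661%. One library stood apart. NZ replicate 2 deviated from the other 3 NZ libraries with an SD over genes of 0.378 on the log2 scale, against 0.188 to 0.239 for the other 7 libraries. What sets this library apart was not tested. In NZ replicate 2, 198 genes lay more than 1 log2 unit from the mean of the other NZ libraries, against 25 to 75 in the other 7 libraries.

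With all 8 libraries, 565 genes were higher and 516 lower in NZ than in ND among 15342 tested, at an adjusted p below 0.05 by edgeR's quasi-likelihood test with Benjamini-Hochberg adjustment. That is 3.68% of genes higher, 3.36% lower and 7.05% in either direction. Most differences were small, with a median log2 fold change of 0.40 among the genes called higher, -0.39 among those called lower and 0.016 over all genes. A change beyond 2-fold was found in 25 genes called higher and 22 called lower. The 4 NZ libraries lay wholly above the 4 ND libraries in 1305 genes (8.51%) and wholly below in 1396 (9.1%). Of the 1081 genes called, 1015 (6.62% of those tested) had no overlap between the groups. At an unadjusted p below 0.05 were 4074 genes (26.6%) in either direction. DESeq2 called 1013 genes higher and 1206 lower of 19619.

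The number of genes called rested on single libraries. Leaving out ND replicate 1, ND replicate 2, NZ replicate 3 or NZ replicate 5 left 26, 19, 32 and 50 genes past the threshold. Leaving out ND replicate 3 left 127 and ND replicate 4 left 407. Leaving out NZ replicate 2, the library that stood apart, raised the count to 2057, of which 935 were among the 1081, and leaving out NZ replicate 4 gave 1169. All 1081 genes kept their sign in each of these 8 fits, which share libraries with the fit that chose them, so nothing is read from it. In 18 genes (0.117% of those tested), called steady here, the adjusted p stayed below 0.05 whichever library was left out, 13 lower and 5 higher in NZ. Of the 1081, 25 were past the threshold in none of the 8 fits. The steady genes were picked by this outcome, and those among them outside the rule for named genes, like the further genes below taken from the gene lists or from the contrasts with other libraries, were chosen after their values were seen.

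**Figure D1:**
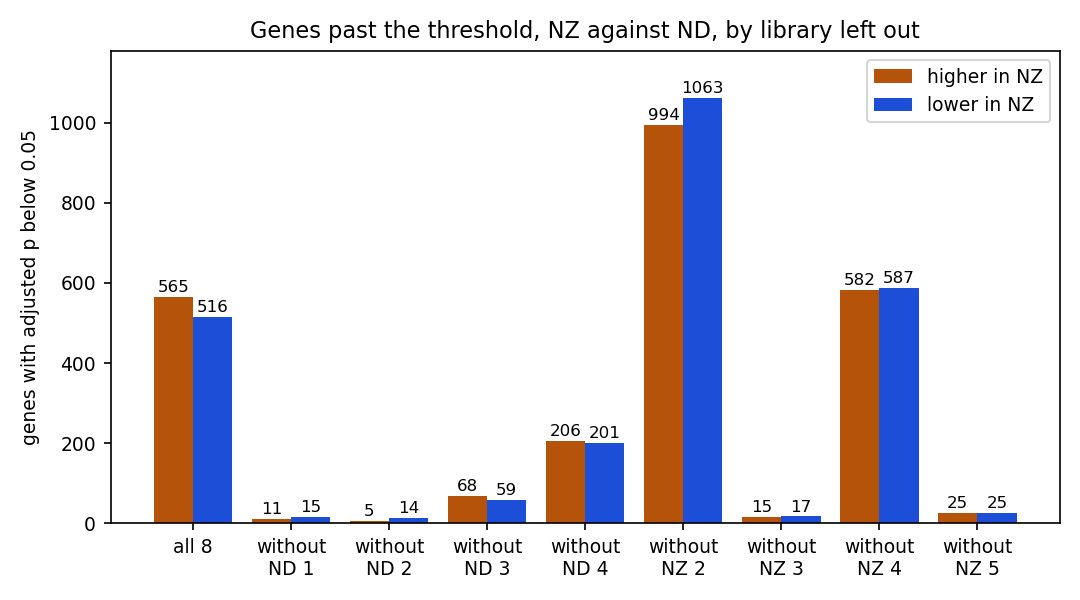
Genes with an adjusted p below 0.05 for NZ against ND (edgeR's quasi-likelihood test, y axis, number of genes) with all 8 libraries and with each library left out (x axis), split into genes higher and lower in NZ. The counts fall from 565 and 516 to 5 and 14 without ND replicate 2, and rise to 994 and 1063 without NZ replicate 2.

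Of the 18 steady genes 13 were lower with the ZFP. Prelp (chr1:133910304-133930102), a small leucine-rich proteoglycan secreted into the matrix, stood at 9.96, 10.1, 12.7 and 12.3 CPM in the ND libraries and 1.17, 2.97, 2.4 and 3.02 CPM in the NZ libraries (replicates 1 to 4 and 2 to 5, the order used throughout). The groups did not overlap, and the highest NZ library was far below the lowest ND library. The log2 fold change was -2.23 ± 0.28, adjusted p = 0.00183 (± SE, n = 4 and 4), and it ranged from -2.36 to -2.01 with 1 library left out. Ncan (chr8:70093085-70120863), encoding neurocan, a chondroitin sulfate proteoglycan of the brain matrix made largely by astrocytes and neurons, was at 619.8, 715, 763 and 725 CPM in ND and 334, 393, 330.4 and 319 CPM in NZ. Every NZ library was below every ND library, and the level of 706 ± 60.7 CPM (SD, n = 4) in ND was 344 ± 33.4 CPM in NZ (log2 fold change -1.04 ± 0.12, adjusted p = 0.00101).

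Itga7, the alpha subunit of a laminin-binding integrin, stood at 8.83, 11.3, 9.96 and 12.2 CPM in ND and 2.58, 4.79, 3.19 and 3.48 CPM in NZ (log2 fold change -1.59 ± 0.22, adjusted p = 0.00427). Olfml2a, a secreted olfactomedin-domain glycoprotein, was low in both groups, at 2.86, 3.16, 2.71 and 2.89 CPM in ND and 0.713, 0.687, 0.742 and 0.762 CPM in NZ, with little spread within either (log2 fold change -2.0 ± 0.31, adjusted p = 0.00839). Notch4, a receptor of the Notch family known from vessels, fell from 3.1 ± 0.587 to 1.2 ± 0.195 CPM (SD, n = 4 each; log2 fold change -1.37 ± 0.20, adjusted p = 0.00653). In all of these the groups were separate. Vessel cells are a known source of Notch4, and 14 endothelial and mural genes summed to 86.2 to 102 CPM in ND and 71.6 to 90.3 CPM in NZ, and their part in the Notch4 value was not tested.

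Cyp2j6, a cytochrome P450 of the family that epoxidises fatty acids, stood at 63.2, 70.8, 71.1 and 70.3 CPM in ND and 31.1, 30.2, 21.5 and 26.6 CPM in NZ (log2 fold change -1.33 ± 0.14, adjusted p = 9.02e-04). Kcnn3, the small-conductance calcium-activated potassium channel SK3, whose human coding sequence holds CAG repeats, stood at 80.2, 80.1, 95.8 and 83 CPM in ND and 39.4, 52.8, 52.8 and 47.9 CPM in NZ (log2 fold change -0.81 ± 0.11, adjusted p = 0.00427). Txlnb, a syntaxin-binding taxilin first described in muscle, stood at 9.52, 8.73, 10.2 and 13.1 CPM in ND and 1.87, 2.16, 1.5 and 1.98 CPM in NZ, the steepest fall after Krt25 of the 18 at -2.47 ± 0.29, adjusted p = 0.00101. In these 3 genes every NZ library was far below every ND library. Krt25, a keratin of the hair root sheath, had the steepest fitted fall of the 18, -2.96 ± 0.45, adjusted p = 0.00754, but from a level of 1.64, 4.15, 1.77 and 1.68 CPM in ND, where replicate 2 was well above the others, to 0.314, 0.192, 0.316 and 0.365 CPM in NZ. The groups did not overlap, at a level near the filter on low counts.

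Tceal6 (chrX:135208686-135210687), an X-linked member of the transcription elongation factor A-like family, stood at 84.6, 79.3, 79.7 and 78.1 CPM in ND and 39.9, 40, 50.6 and 43.5 CPM in NZ (log2 fold change -0.89 ± 0.13, adjusted p = 0.00653). Brdt, a bromodomain protein known from the testis, was at 8.91, 8.9, 8.42 and 8.61 CPM in ND and 5.55, 5.37, 5.13 and 5.25 CPM in NZ (log2 fold change -0.71 ± 0.090, adjusted p = 0.00183). Fkbp1a, the prolyl isomerase that binds rapamycin and ryanodine receptors, stood at 175 ± 4.97 CPM in ND and 123 ± 8.11 CPM in NZ (SD, n = 4 each; log2 fold change -0.51 ± 0.081, adjusted p = 0.00974). Npas2, a clock transcription factor that pairs with BMAL1, stood at 46.9 ± 2.96 CPM and 33.4 ± 2.49 CPM (log2 fold change -0.49 ± 0.076, adjusted p = 0.00839). In each of the 4 genes the NZ libraries lay below all ND libraries, at 0.541, 0.612, 0.7 and 0.713 of the ND level.

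The other 5 steady genes were higher with the ZFP. Gas6, the secreted ligand of the engulfment receptors Axl and Mertk, stood at 185, 187, 174 and 196 CPM in ND and 301, 285, 266 and 293 CPM in NZ (log2 fold change 0.63 ± 0.081, adjusted p = 0.00183). Ftl1, the ferritin light chain that stores iron, stood at 36.4, 36.8, 35.1 and 35.1 CPM in ND and 53.9, 56.7, 51.9 and 59.5 CPM in NZ (log2 fold change 0.63 ± 0.073, adjusted p = 0.00101), and its reads may be shared with near-identical copies. For both genes the groups were separated by far more than their spread. Sesn2, sestrin 2, a stress-induced inhibitor of mTORC1 signalling, stood at 22.3, 23.5, 22.8 and 23.3 CPM in ND and 40.5, 34.1, 29.5 and 35.1 CPM in NZ, the highest of which was NZ replicate 2 (log2 fold change 0.60 ± 0.097, adjusted p = 0.012; largest adjusted p with 1 library left out 0.0499). Slc5a3, the sodium and myo-inositol cotransporter that supplies an osmolyte, stood at 84.7 ± 6.03 and 116 ± 7.48 CPM (log2 fold change 0.46 ± 0.069, adjusted p = 0.00754). Mfsd7a, a membrane protein of the major facilitator superfamily, rose from 0.459 ± 0.144 to 1.43 ± 0.301 CPM (log2 fold change 1.62 ± 0.25, adjusted p = 0.00754), at a level near the filter on low counts.

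**Figure D2:**
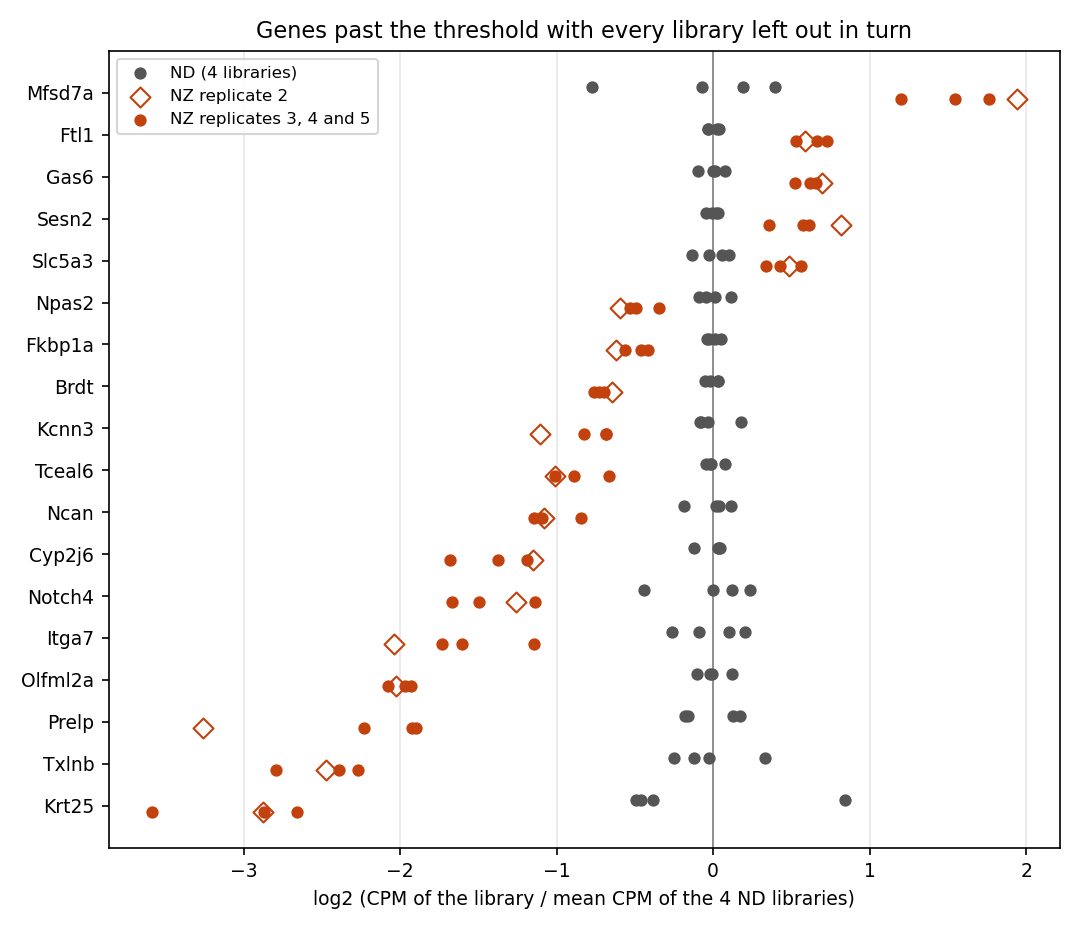
Level of the 18 genes that passed the threshold whichever library was left out: log2 of each library's CPM over the mean of the 4 ND libraries (x axis), 1 gene per line, with ND points above NZ points. All NZ points, with NZ replicate 2 drawn as an open diamond, lie on one side of all ND points for each of the 18 genes.

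Since such repressors are known to bind CAG repeats, RefSeq promoter windows (GRCm38.p6, the assembly of mm10, from 250 bases before to 50 after each transcript start) were searched for 4 or more CAG units in a row on either strand, that is CAGCAGCAGCAG or CTGCTGCTGCTG. Of 32851 windows of the same length 121 (0.368%) held such a run. Of 12062 tested genes with a window, 55 (0.456%) had one, and their median log2 fold change was -0.092 beside 0.017 over all genes with a window. None of the 55 was called higher and 4 were called lower (7.27%): Prelp, Tceal6, Hnrnpdl and Anks1b. Of all 12062 genes with a window 836 (6.93%) were called and 385 (3.19%) called lower. The 7.27% among the 55 is near the share called in either direction and above the share called lower. It rests on 4 genes, and this difference was not tested. By DESeq2, 0 were higher and 7 lower, and 4 were higher and 11 lower at an unadjusted p below 0.05. Over all genes DESeq2 called 1013 higher and 1206 lower of 19619, and 26.6% had an unadjusted p below 0.05. Of the 16 steady genes with a window, 2 held the run (12.5%, beside 0.456% of all tested genes with a window), Prelp and Tceal6. Leaving out ND replicate 1, 2 or 3 or NZ replicate 3 or 5 left those 2 as the members called, and leaving out NZ replicate 2 gave 3 higher and 6 lower, beside 994 and 1063 of all 15459 genes in that fit.

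The 4 sites are shown because these are the called genes with a repeat in the window, and the capitals mark the run of repeats, read on the gene's strand in 30 bases.
Prelp, chr1:133921603-133921632, minus strand: tccagagCAGCAGCAGCAGCAGgaaacatt
Tceal6, chrX:135210638-135210667, minus strand: cccccgcgccagctagtcCTGCTGCTGCTG
Hnrnpdl, chr5:100039331-100039360, minus strand: gccgctgCAGCAGCAGCAGCAGctctgcac
Anks1b, chr10:90576507-90576536, plus strand: aggagggagCAGCAGCAGCAGcgggcttac
In Prelp and Hnrnpdl the run has 5 CAG units and ends 210 and 117 bases before the transcript start. In Anks1b it has 4 units and ends 164 bases before the start, in 1 of the windows listed for this gene. In Tceal6 it is read as 4 CTG units, 39 to 50 bases after the start, up to the end of the window, so its full length is not seen.

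The 250 bases before a Prelp transcript start that lies inside the annotated span of the gene are shown because Prelp has the largest change of the 4 genes, and the run is near the far end (RefSeq, GRCm38.p6, chr1:133921402-133921651, minus strand, capitals for the run).
Prelp: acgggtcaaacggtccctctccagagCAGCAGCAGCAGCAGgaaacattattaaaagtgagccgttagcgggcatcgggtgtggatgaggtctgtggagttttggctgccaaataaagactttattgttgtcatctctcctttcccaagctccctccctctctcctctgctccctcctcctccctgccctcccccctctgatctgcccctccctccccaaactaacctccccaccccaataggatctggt
Hnrnpdl, an RNA-binding protein related to AUF1, stood at 187, 201, 193 and 180.4 CPM in ND and 146, 126, 129 and 116 CPM in NZ (log2 fold change -0.56 ± 0.12, adjusted p = 0.0252). Anks1b, a postsynaptic scaffold protein, stood at 421, 422, 419.8 and 392 CPM in ND and 257, 318, 357 and 306 CPM in NZ (log2 fold change -0.42 ± 0.095, adjusted p = 0.0276). Both passed the threshold in 3 of the 8 fits with a library left out. A match in the window is a description of these letters, and binding of the ZFP there was not tested.

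The same contrast in R6/2 used other libraries of the set. RZ against RD gave 2 genes higher (0.013%) and 10 lower (0.0652%), 0.0782% of 15342 in all, and 9 of these 12 were called in the same direction in NCAR. Lower in both were Prelp, A2m, Txlnb, Olfml2a, Itga7, Cyp2j6, Ncan and Kcnn3, and higher in both was Sbk1, a serine/threonine kinase. For Prelp the log2 fold change was -2.23 ± 0.28 in NCAR and -2.31 ± 0.28 in R6/2, and for Ncan -1.04 ± 0.12 and -1.03 ± 0.12. A2m, a secreted inhibitor of proteases, stood at 4.12, 3.92, 5.04 and 6.48 CPM in ND and 0.775, 2.24, 1.14 and 1.03 CPM in NZ, with a log2 fold change of -1.9 ± 0.35, adjusted p = 0.0177, and of -2.07 ± 0.35 in R6/2. Sbk1 stood at 103 ± 2.76 and 124 ± 3.16 CPM (log2 fold change 0.27 ± 0.054, adjusted p = 0.0215), and its value in R6/2 was 0.31 ± 0.054. The other genes called in R6/2 were Gm12695 (-2.0 in R6/2, -0.47 in NCAR), H3f3b (-0.37 and -0.089) and Cpne9 (1.13 and -0.026).

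Of the 18 steady genes the other 11 were not called in R6/2, where Tceal6 was at -0.56 ± 0.13, Gas6 at 0.43 ± 0.080, Fkbp1a at -0.32 ± 0.081 and Npas2 at -0.019 ± 0.077. Notch4 was at -0.91 ± 0.20, Brdt at -0.33 ± 0.090, Slc5a3 at 0.16 ± 0.069 and Mfsd7a at 0.34 ± 0.24. Ftl1 was at -0.036 ± 0.073 and Sesn2 at 0.069 ± 0.097. Krt25 had a value of opposite sign that did not pass the test, 1.4 ± 0.44 (adjusted p = 0.174). A difference of the ZFP contrast between the genotypes was tested directly and passed the threshold in 0 of 15342 genes by edgeR's quasi-likelihood test (0%), with 1143 genes (7.45%) at an unadjusted p below 0.05 and 52 genes called by DESeq2. Near the threshold in this edgeR test were Krt25, with a difference of 4.36 ± 0.63 (adjusted p = 0.052), and Ftl1, with -0.67 ± 0.10 (adjusted p = 0.063). Over the 1081 genes called in NCAR, 969 had the same sign in R6/2, beside 10224 of all 15342.

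**Figure D3:**
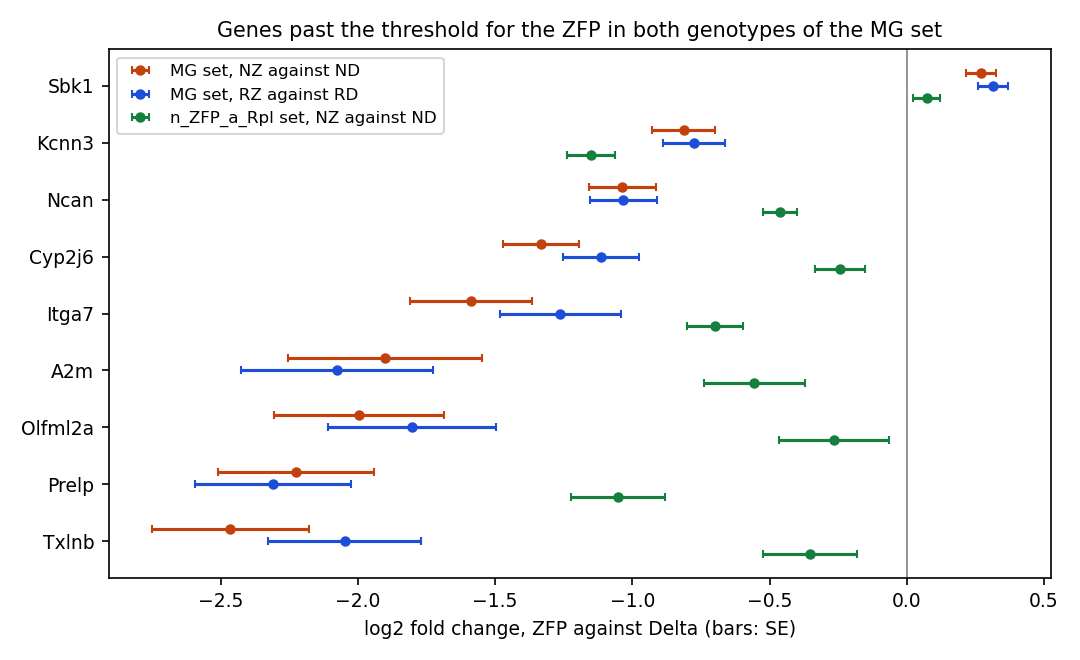
Log2 fold change of ZFP against Delta (x axis, bars are SE) of the 9 genes past the threshold in the same direction in both genotypes of the MG set, with the value of NZ against ND in the n_ZFP_a_Rpl set. All 9 have the same sign in both genotypes of the MG set, as Ncan at -1.04 and -1.03. In the n_ZFP_a_Rpl set Kcnn3 is at -1.15, and the other 8 lie nearer to 0 than in NCAR of the MG set.

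The n_ZFP_a_Rpl set is a second astrocyte IP with its own ND and NZ libraries (4 and 4). There 183 genes were higher (1.2%) and 133 lower (0.872%) among 15246 tested, 2.07% in all. Of the 1081 genes called in the MG set 1080 were tested there, and 406 had the same sign, beside 6620 of all 15102 genes tested in both. Called in the same direction in both sets were 29 genes, and in opposite directions 20. The difference between the sets was tested in 1 model and passed the threshold for 756 of the 1081 genes, against 13.9% of all 15594 genes (4.14% with a higher and 9.72% with a lower value in the MG set). The 1081 were chosen on the MG contrast, which is 1 side of this difference, so nothing is read from that share. The set and any handling that differed between the sets cannot be told apart.

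Several genes lowest in the n_ZFP_a_Rpl set were also lower, by less, in the MG set. Tceal6 was at -4.95 ± 0.14 there and -0.89 ± 0.13 in MG, and the difference between the sets had an adjusted p of 8.19e-14. Nap1l3, a nucleosome assembly protein-like gene of neurons, was at -3.37 ± 0.17 there and -0.35 ± 0.078, adjusted p = 0.027 in MG. Atp2b3, a plasma membrane calcium pump, was at -3.16 ± 0.26 and -0.34 ± 0.081. Dach1, a transcription cofactor, was at -2.57 ± 0.088 and -0.62 ± 0.14, and Dnajc12, a J-domain co-chaperone, at -2.38 ± 0.14 and -0.43 ± 0.097. Brdt was at -1.71 ± 0.10 there against -0.71 ± 0.090 in MG. The MG value was nearer to 0 in each of these 6 genes, and the difference between sets passed the threshold in each (largest adjusted p 3.73e-05). The 6 were picked for their fall in the n_ZFP_a_Rpl set, which is 1 side of this difference, so nothing is read from it.

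For Prelp, Ncan and Itga7 the order was the reverse, with the larger fall in the MG set. Prelp was at -2.23 ± 0.28 in MG and -1.05 ± 0.17 in the n_ZFP_a_Rpl set (adjusted p of the difference 0.0202), Ncan at -1.04 ± 0.12 and -0.46 ± 0.062 (0.00644), and Itga7 at -1.59 ± 0.22 and -0.70 ± 0.10 (0.0165). These 3 were called lower in both sets. Kcnn3, also called in both, did not pass the test of a difference between the sets (-0.81 ± 0.11 against -1.15 ± 0.087, adjusted p = 0.186). Cspg5, encoding the brain proteoglycan neuroglycan C, was called in both, at -0.49 ± 0.12 in MG and -0.39 ± 0.061 in the other set (adjusted p of the difference 0.57). Cyp2j6, Txlnb and Olfml2a were called in the MG set and not in the other, where they were at -0.24 ± 0.092, -0.35 ± 0.17 and -0.26 ± 0.20, and the difference passed the threshold for all 3 (adjusted p = 2.99e-04, 3.75e-04 and 0.00397). The steady genes among these were chosen on the MG contrast, 1 side of the difference, so nothing is read from which of them passed.

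Of the 12 highest and 12 lowest called fold changes at a mean of at least 5 CPM, Txlnb, Prelp, Itga7, Cyp2j6, Ncan and Tceal6 are steady genes given above, and others follow. Npsr1, the receptor of neuropeptide S, had the highest fold change. It stood at 0.399, 0.59, 0.873 and 0.234 CPM in ND, from 12 to 39 counts per library, and at 4.09, 11.9, 6.19 and 8.17 CPM in NZ (log2 fold change 3.87 ± 0.76, adjusted p = 0.0234), and passed the threshold in 4 of the 8 fits with a library left out. In R6/2 the mean of Npsr1 was 10.5 CPM with Delta and 6.41 CPM with the ZFP (log2 fold change -0.71 ± 0.63), where it was not called. Dnah6, an axonemal dynein heavy chain, stood at 14.1, 12.3, 15.5 and 17.6 CPM and 20.7, 60.4, 61.9 and 40.7 CPM (log2 fold change 1.63 ± 0.44, adjusted p = 0.043), with NZ replicate 2 close to the ND libraries. Piezo1, the mechanosensitive cation channel, stood at 7.71, 9.59, 8.66 and 9.52 CPM and 20.3, 17, 15.3 and 17.3 CPM (log2 fold change 0.98 ± 0.17, adjusted p = 0.0139; past the threshold in 6 of 8 fits). Adamts1, a protease of proteoglycans, stood at 23.4 ± 4.34 and 46.2 ± 14 CPM (log2 fold change 0.98 ± 0.21, adjusted p = 0.0252), and Tnfaip6, a hyaluronan-binding protein, at 5.63 ± 1.6 and 12.5 ± 3.51 CPM (1.15 ± 0.32, adjusted p = 0.0467).

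Dusp4, a phosphatase of MAP kinases, was at a log2 fold change of 1.1 ± 0.21, adjusted p = 0.0194, Anxa4, a calcium-dependent lipid-binding protein, at 1.04 ± 0.29, adjusted p = 0.0429, and Id3, an inhibitor of helix-loop-helix factors, at 0.89 ± 0.21, adjusted p = 0.0296. These 3 passed the threshold in 5, 2 and 3 of the 8 fits with a library left out. Dpy19l1, a C-mannosyltransferase, and Tspan4, a tetraspanin, were at 0.91 ± 0.25, adjusted p = 0.0437 and 0.90 ± 0.23, adjusted p = 0.0347, each past the threshold in 1 of those fits, without overlap of the groups. Among the 12 lowest, Sp6, a zinc-finger factor of tooth and skin, stood at 8.47, 19.1, 11.4 and 11.2 CPM in ND and 1.82, 0.742, 1.06 and 0.904 CPM in NZ (log2 fold change -3.49 ± 0.67, adjusted p = 0.0215), and at 1.72 ± 0.62 in R6/2, where it was not called. Rn45s, the 45S pre-ribosomal RNA, stood at 3323, 1124, 1504 and 1223 CPM in ND and 410.0, 305, 651 and 883 CPM in NZ (-1.67 ± 0.38, adjusted p = 0.0293). The R6/2 means of Rn45s were 472 CPM with Delta and 299.6 CPM with the ZFP (-0.66 ± 0.38), where it was not called. RD against ND was at -1.93 ± 0.39 (edgeR's quasi-likelihood test, adjusted p = 0.00164), so ND had the highest mean of the MG conditions. Nexn, an actin-binding protein, Plxdc1, a plexin-domain receptor, Tmem181a and Cetn4 were at -1.14 ± 0.23, adjusted p = 0.0249, at -0.87 ± 0.17, adjusted p = 0.0223, at -0.93 ± 0.20, adjusted p = 0.026 and at -0.89 ± 0.23, adjusted p = 0.0382. They passed the threshold in 3, 5, 4 and 1 of the 8 fits.

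Of 33 genes of striatal projection neurons, 9 were called lower in NZ and 0 higher, beside 3.36% and 3.68% of all genes, 32 had a negative fold change, and the median was -0.30 on the log2 scale. Among those called were Foxp1, Bcl11b and Foxp2, transcription factors of these neurons, Penk, the precursor of enkephalin, Drd2, the dopamine D2 receptor, Rgs9, Pde10a and Tmem158. Foxp1 stood at 494, 516, 515 and 511 CPM in ND and 253, 319.7, 397 and 339.8 CPM in NZ (log2 fold change -0.64 ± 0.13, adjusted p = 0.0242), and Bcl11b at 657, 678, 647 and 672 CPM and 347, 408, 543 and 435 CPM (-0.61 ± 0.13, adjusted p = 0.0252). In both genes NZ replicate 2 was the lowest library. Penk was at 1623 ± 77.7 CPM in ND and 1025 ± 139.7 CPM in NZ (SD, n = 4 each; -0.66 ± 0.17, adjusted p = 0.0336). None of the 9 was called in all 8 fits: without NZ replicate 2, 8 of the list were called, without NZ replicate 4 13, without ND replicate 4 3, and without any one of the other 5 libraries 0. Over all genes the fit without NZ replicate 2 called 994 higher and 1063 lower of 15459. In R6/2 the median of the list was 0.035, and in the n_ZFP_a_Rpl set 0.063.

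The summed level of the 33 genes was 17200 to 18100 CPM in ND and 9870 to 17000 CPM in NZ, without overlap, a ratio of 0.767 (two-sided exact permutation test over samples, p = 0.0286, the smallest that 4 against 4 allows, 0.143 after adjustment over 10 cell type lists). NZ replicate 2 was the lowest, and without it the NZ sums were 13300 to 17000 CPM, a ratio of 0.836 (exact permutation p = 0.0571, the smallest that 4 against 3 allows). The 16 pan-neuronal genes summed to 7700 to 8610 CPM in ND and 6890 to 7130 CPM in NZ, also without overlap (exact permutation p = 0.0286, adjusted 0.143), and Rbfox3, the nuclear antigen NeuN, was called lower at -0.60 ± 0.13, adjusted p = 0.0259, with Map2, a dendritic microtubule protein, at -0.35 ± 0.10, adjusted p = 0.0474. Without NZ replicate 2 the pan-neuronal sums in NZ were 6890 to 7070 CPM, a ratio of 0.866. In these pulldowns, fewer cells of a type, less RNA per cell and less of their RNA held in the IP cannot be told apart.

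None of the 20 astrocyte markers passed the test. Their sum was 31800 to 38000 CPM in ND and 26400 to 50500 CPM in NZ, where NZ replicate 2 was the highest and NZ replicate 4 the lowest library of all 8 (exact permutation p = 0.971). The count was 0 of 20 by edgeR's quasi-likelihood test (5 higher and 0 lower at an unadjusted p below 0.05, and 1 higher and 0 lower by DESeq2), with a median of 0.072 that ranged from -0.12 to 0.17 with a library left out. Of all genes 26.6% had an unadjusted p below 0.05, and DESeq2 called 1013 higher and 1206 lower of 19619. Aqp4, the water channel of astrocyte endfeet, was at 807 ± 116 CPM in ND and 854 ± 237 CPM in NZ (0.081 ± 0.19, adjusted p = 0.83). Gfap, the filament protein that rises in reactive astrocytes, ranged over 366, 354, 427 and 682 CPM in ND and 485, 1208, 708 and 656 CPM in NZ, where replicate 3 was the highest, and did not pass the test (0.74 ± 0.34, adjusted p = 0.186). All 14 oligodendrocyte genes had a positive fold change, with a median of 0.55 (0.37 to 0.76 with a library left out) and 0 called (1 higher and 0 lower at an unadjusted p below 0.05, and 0 higher and 0 lower by DESeq2). Their sum was 2010 to 3450 CPM in ND and 2110 to 5350 CPM in NZ, with NZ replicate 2 the lowest of the NZ libraries. Whether these shifts in other cell types have a part in the gene calls was not tested.

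**Figure D4:**
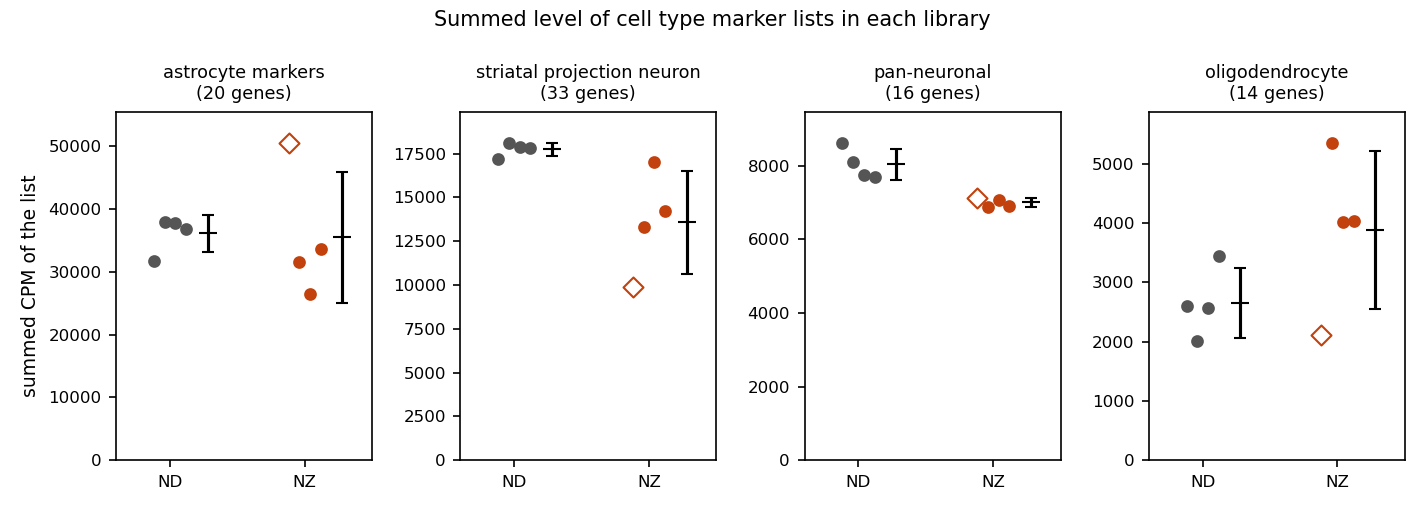
Summed CPM of 4 marker lists (y axis, from 0) in each ND and NZ library, 1 point per library, with the mean and SD (n = 4) beside them. NZ replicate 2 is the open diamond. It is the highest library in astrocyte markers, at 50500 CPM, and the lowest in projection neuron genes, at 9870 CPM.

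Of 82 nuclear genes of oxidative phosphorylation, 22 were called higher in NZ and 1 lower, beside 3.68% and 3.36% of all genes, with a median of 0.15. In 37 of the 82 the NZ libraries lay above all ND libraries, beside 8.51% of all genes. Uqcrfs1, the Rieske iron-sulfur subunit of complex III, stood at 90.5, 90.3, 91.7 and 91.8 CPM in ND and 123, 117, 112 and 120.4 CPM in NZ (0.38 ± 0.074, adjusted p = 0.0215). Ndufc2, a subunit of complex I, stood at 50.5, 42.4, 50.2 and 45.8 CPM and 62.2, 66.6, 62.8 and 63.8 CPM (0.43 ± 0.092, adjusted p = 0.0252), and Atp5e, of the ATP synthase, at 15.2 ± 0.283 and 26.7 ± 5.45 CPM (0.81 ± 0.18, adjusted p = 0.0277). The one called lower was Cox7b2, a testis form of a complex IV subunit low in every library. The median stayed between 0.13 and 0.17 with a library left out, while the number called higher was 29 without NZ replicate 2 (with 8 lower), 15 without NZ replicate 4, 4 without ND replicate 4, 1 without ND replicate 3 and 0 without any one of the other 4. Over all genes the fit without NZ replicate 2 called 994 higher and 1063 lower of 15459. The median of the list was 0.074 in R6/2 and -0.069 in the n_ZFP_a_Rpl set, where Uqcrfs1 was called lower (-0.18 ± 0.043, adjusted p = 0.0348).

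Of 76 genes of cytosolic ribosomal proteins, 19 were called higher and 0 lower, beside 3.68% and 3.36% of all genes. Their median was 0.24, and it stayed between 0.21 and 0.26 with a library left out. Rps14 and Rps19, of the small subunit, were those with the smallest p. Rps14 stood at 18.4, 18.8, 16.5 and 19.5 CPM in ND and 24.7, 39.5, 37 and 37.9 CPM in NZ, with NZ replicate 2 between the groups (0.93 ± 0.20, adjusted p = 0.0265), and Rps19 at 13.3, 12.4, 12.7 and 14.3 CPM and 16.2, 20.9, 20.4 and 21.4 CPM (0.59 ± 0.11, adjusted p = 0.0177). The number called higher was 27 without NZ replicate 2 (with 2 lower), 10 without NZ replicate 4, 3 without ND replicate 4, 1 without ND replicate 3 and 0 without any one of the other 4. Over all genes the fit without NZ replicate 2 called 994 higher and 1063 lower of 15459. The median was 0.16 in R6/2 and 0.17 in the n_ZFP_a_Rpl set. Many of these genes have near-identical processed copies, so that their counts are uncertain. Rpl22, a member of the list whose product carries the tag in the RiboTag method, stood at 537, 454, 543 and 1097 CPM in ND and 380.5, 433, 554 and 522 CPM in NZ, where ND replicate 4 was far above the other libraries (-0.48 ± 0.22, adjusted p = 0.181). The summed level of the list was 2180 to 2770 CPM in ND and 2210 to 2470 CPM in NZ with Rpl22, and 1675 to 1722 CPM in ND and 1831 to 1913 CPM in NZ without it, a sum added after the data were seen.

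In the integrated stress response, 5 of 21 were called higher and 0 lower, beside 3.68% and 3.36% of all genes (median 0.24): Sesn2, Slc7a5, Phgdh, Mthfd2 and Ddit4. Slc7a5, a carrier of large neutral amino acids, stood at 28.9, 28.9, 32.6 and 28.6 CPM in ND and 41, 39.9, 34.6 and 37.6 CPM in NZ (0.36 ± 0.082, adjusted p = 0.0276), and Phgdh, the entry enzyme of serine synthesis, at 54.1 ± 3.06 and 72.7 ± 6.77 CPM (0.43 ± 0.12, adjusted p = 0.0412). For Slc7a5 the lowest NZ library was just above the highest ND library. Among p53 targets 4 of 18 were called higher and 0 lower, beside the same shares (median 0.26), namely Sesn2, which is on both lists, Phlda3, Bax and Cdkn1a. Phlda3, a p53-induced inhibitor of Akt, stood at 48.5, 45.6, 47.3 and 60.9 CPM in ND and 95.4, 96.3, 93.1 and 101 CPM in NZ (0.93 ± 0.17, adjusted p = 0.0177). Cdkn1a, the cell cycle inhibitor p21, stood at 27.7, 33, 31.3 and 37.6 CPM and 60.6, 45.1, 47.1 and 64.3 CPM (0.74 ± 0.16, adjusted p = 0.0255), and Bax, a mediator of apoptosis, at 18.8 ± 0.616 and 24.3 ± 1.27 CPM (0.37 ± 0.073, adjusted p = 0.0209). Sesn2 was the only member of either list called whichever library was left out, and without ND replicate 1 or 2 or NZ replicate 3 or 5 it was the only one called.

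Of 24 heat shock and chaperone genes 4 were called higher and 1 lower, beside 3.68% and 3.36% of all genes. Their median was 0.026, near that of all genes. The 4 were Hspa1a and Hspa1b, near-identical inducible Hsp70 genes whose reads cannot be well separated, Hspb8 and Dnajb1. Hspa1a stood at 1.53, 1.43, 2.28 and 2.21 CPM in ND and 3.81, 6.39, 3.69 and 2.79 CPM in NZ (1.17 ± 0.23, adjusted p = 0.0212), and Dnajb1, an Hsp40 partner, at 38.5 ± 2.53 and 55.3 ± 10.5 CPM (0.52 ± 0.14, adjusted p = 0.0386). Dnajc12 was the one called lower. Without ND replicate 1, ND replicate 2 or NZ replicate 3 no member was called. In R6/2 Hspa1a was at 0.016 ± 0.22.

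Htt, mouse huntingtin, did not pass the test. It stood at 351, 341, 341 and 328 CPM in ND and 298, 347, 373 and 335 CPM in NZ, with a log2 fold change of -0.0077 ± 0.068, adjusted p = 0.958, and its sign depended on the scaling. The human transgene has no entry in the table. All 9 mouse orthologues of polyglutamine disease genes had a negative fold change (median -0.16), and 0 were called (0 higher and 3 lower at an unadjusted p below 0.05, and 0 higher and 2 lower by DESeq2). These counts stand beside 26.6% of all genes at an unadjusted p below 0.05, and 1013 higher and 1206 lower of 19619 by DESeq2. Tbp, the TATA-binding protein, had the largest difference of the 9, from 18.5 ± 1.3 to 15.1 ± 1.6 CPM (-0.29 ± 0.097, adjusted p = 0.0758).

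Genes of the silencing machinery that KRAB repressor domains recruit were called lower in 4 of 21 and higher in 0, beside 3.36% and 3.68% of all genes. Their median was -0.14, and in 10 of the 21 the NZ libraries lay below all ND libraries, beside 9.1% of all genes. Cbx1, a heterochromatin protein, stood at 28.4, 30.7, 28.3 and 29.4 CPM in ND and 25.8, 21.6, 21.3 and 23.1 CPM in NZ (-0.35 ± 0.082, adjusted p = 0.0291). Fam208a, a subunit of the HUSH silencing complex, was at 106 ± 6.72 and 90.9 ± 4.79 CPM (-0.22 ± 0.054, adjusted p = 0.0305). Hdac2, a histone deacetylase, and Chd4, the remodeller of the NuRD complex, were at -0.31 ± 0.085, adjusted p = 0.0427 and -0.31 ± 0.078, adjusted p = 0.0353. The 4 calls stayed at 4 without NZ replicate 2 or NZ replicate 4, 1 was left without ND replicate 4, and 0 without any one of the other 5 libraries. Over all genes the fit without NZ replicate 2 called 994 higher and 1063 lower of 15459. Of 15 genes of mismatch repair and CAG instability, 2 were called lower and 0 higher, beside the same shares of all genes (median 0.023). Mlh3 stood at 56.7, 50.3, 52.5 and 49.8 CPM in ND and 46, 41.7, 45.3 and 44.8 CPM in NZ (-0.24 ± 0.056, adjusted p = 0.0293), and Msh3, which forms the MutS-beta sensor of repeat loops, at 41.8, 43.5, 41.6 and 40.9 CPM and 34.6, 33.4, 37.4 and 33.1 CPM (-0.28 ± 0.078, adjusted p = 0.0447). Both groups were separate for each gene, by a small margin, and the list had 0 members called without ND replicate 1, 2 or 3 or NZ replicate 3 or 5.

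Interferon-response genes had the highest median of the lists, 0.85, with a positive fold change in 26 of 26 and 0 called (1 higher and 0 lower at an unadjusted p below 0.05, and 1 higher and 0 lower by DESeq2). Over all genes the unadjusted share was 26.6%, and DESeq2 called 1013 higher and 1206 lower of 19619. The libraries of both groups varied widely. Usp18, an interferon-induced protease, stood at 4.56, 1.6, 16 and 4.31 CPM in ND and 10.1, 35.1, 23.5 and 14.6 CPM in NZ (1.67 ± 0.87, adjusted p = 0.24), so that ND replicate 3 was above NZ replicates 2 and 5. H2-K1, a class I histocompatibility gene of the antigen presentation list, stood at 95.1, 47.3, 124 and 46.8 CPM in ND and 80.9, 333, 172 and 62.4 CPM in NZ (1.05 ± 0.97, adjusted p = 0.515). Ifi27 was the one gene of the interferon list whose groups did not overlap, at 24.1 ± 11.4 CPM in ND and 66.6 ± 22.4 CPM in NZ (1.47 ± 0.43, adjusted p = 0.0521). The median of the list fell to 0.48 without NZ replicate 3 and rose to 1.38 without ND replicate 3. In R6/2 it was 0.80, and in the n_ZFP_a_Rpl set -0.19.

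The calls in functional gene lists of astrocytes stand beside 3.68% of all genes called higher and 3.36% called lower. Counts at an unadjusted p below 0.05 stand beside 26.6% of all genes, and those of DESeq2 beside 1013 higher and 1206 lower of 19619. Of 33 reactivity genes 0 were called (3 higher and 0 lower at an unadjusted p below 0.05, and 2 higher and 0 lower by DESeq2), with a median of 0.23 that ranged from -0.018 to 0.30. Of 28 calcium and receptor signalling genes 2 were higher and 3 lower. Adora2b, the low-affinity adenosine receptor, stood at 7.23, 7.63, 8.13 and 7.9 CPM in ND and 14.1, 11.2, 10.7 and 11.4 CPM in NZ (0.62 ± 0.11, adjusted p = 0.0139; past the threshold in 6 of the 8 fits), and Adra1b, an alpha-1 adrenergic receptor, was at 0.62 ± 0.16, adjusted p = 0.0357. Lower were Atp2b1, a plasma membrane calcium pump, at 3346 ± 116 and 2233 ± 320.3 CPM (-0.58 ± 0.13, adjusted p = 0.0268), Plcb1, a phospholipase C (-0.42 ± 0.11, adjusted p = 0.033), and Grm5, a metabotropic glutamate receptor (-0.45 ± 0.12, adjusted p = 0.0406). All 3 are also known from neurons, whose markers were lower in the same NZ libraries, and the part of those cells in the values was not tested.

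Among 27 synapse-forming and engulfment genes, Gas6 and Bcan were called higher and Ncan and Nlgn1 lower, beside 3.68% and 3.36% of all genes. Bcan, encoding brevican, a proteoglycan of the same family as neurocan, stood at 424, 471, 494 and 453 CPM in ND and 753, 655, 527 and 663 CPM in NZ (0.50 ± 0.12, adjusted p = 0.0307), opposite in direction to Ncan in the same libraries. Nlgn1, the synaptic adhesion protein neuroligin 1, stood at 223, 228, 223 and 199 CPM and 159, 143, 163 and 142 CPM (-0.52 ± 0.097, adjusted p = 0.0177). Bcan passed the threshold in 2 and Nlgn1 in 4 of the 8 fits with a library left out, and Gas6 and Ncan in all 8. Among 22 water, ion and coupling genes, Kcnk2, a background potassium channel, was called lower (-0.33 ± 0.090, adjusted p = 0.0413).

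Of 15 genes of glutamate and GABA uptake and metabolism, Got2, the mitochondrial aspartate aminotransferase, was called lower (-0.27 ± 0.078, adjusted p = 0.0465) and 0 higher, beside 3.36% and 3.68% of all genes. Slc1a2, the main glutamate transporter of astrocytes, was at 16767 ± 1748 CPM in ND and 15906 ± 5240.4 CPM in NZ (-0.076 ± 0.21, adjusted p = 0.853), and the spread in NZ limits what 4 libraries can detect. In cholesterol synthesis 1 of 22 was called, Tm7sf2, a sterol reductase (0.39 ± 0.11, adjusted p = 0.0497), and in lipid transport 1 of 20, Plin2, which coats lipid droplets (0.45 ± 0.13, adjusted p = 0.0467). Glycolysis held 1 call in 25, Pgk1 (0.70 ± 0.19, adjusted p = 0.0387), a gene with many processed copies. Each of these 4 genes was past the threshold in at most 2 of the 8 fits with a library left out.

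**Figure D5:**
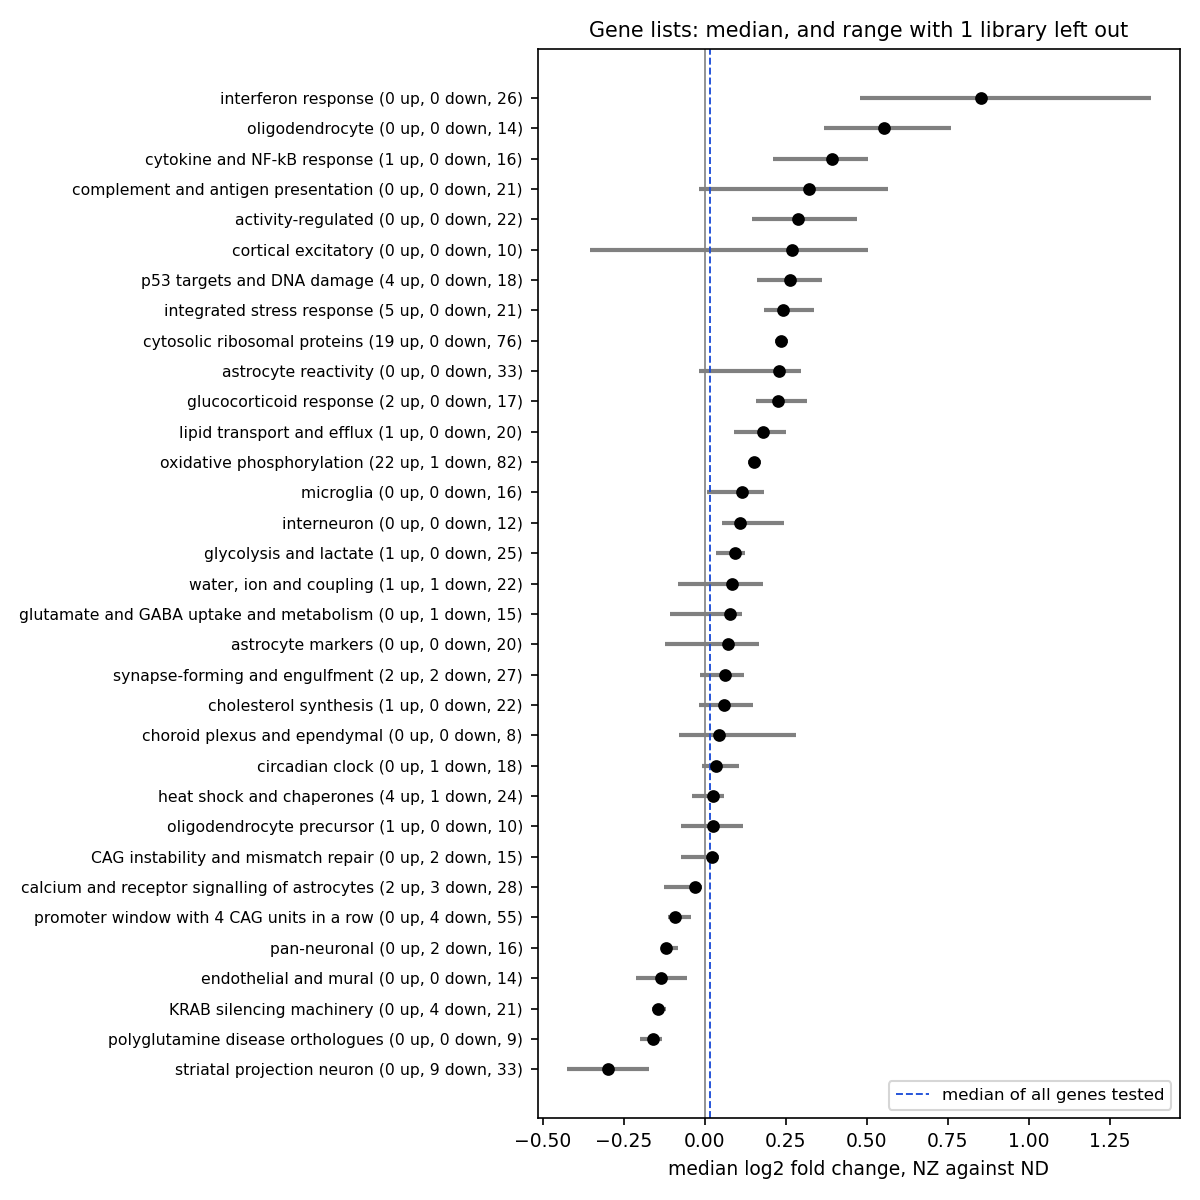
Median log2 fold change of NZ against ND (x axis) of each gene list, with the genes called higher and lower and the number tested in brackets. Points are medians with all 8 libraries, grey bars the lowest and highest median with 1 library left out, and the dashed line the median of all genes, 0.016. The bar of the ribosomal protein genes runs from 0.21 to 0.26 and that of the interferon genes from 0.48 to 1.38.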

How the data were processed

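RNA bound to tagged ribosomes was sequenced after pulldown (TruSeq libraries, per the labels). The deposited table holds read counts per gene symbol, made by the authors with STAR and HTSeq on mm10, per the submitters' processing notes, with versions and the strand setting not given in the sources used here. Genes that overlap, or share reads with near-identical copies, are therefore uncertain. Of 24060 entries 4 with repeated symbols were left out. Scaling by TMM, edgeR 4.0.16's filterByExpr (minimum count 10, total 15) and its robust quasi-likelihood test (R 4.3.3, limma 3.58.1) were fitted to the 16 IP libraries of the 4 MG conditions, which share 1 estimate of the spread, with Benjamini-Hochberg adjustment over 15342 genes and a threshold of 0.05. The n_ZFP_a_Rpl set was fitted to its own 15 IP libraries, and the difference between sets to all 31. Totals were 42926495 to 72623472 counts over these libraries, so depth gives little counting error except for genes near 1 CPM. Summed levels of 10 cell type lists were compared by two-sided exact permutation over the 8 samples.

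Genes named by rule were the 12 highest and 12 lowest fold changes past the threshold at a mean of at least 5 CPM without overlap of the groups. Passed over were Gm, Rik and -ps symbols, genes of the Y chromosome, Xist and Tsix, while other X-linked genes were kept. To these were added, in each list, up to 2 genes per direction past the threshold with the smallest p or, in a list with none, the member with the largest absolute fold change at that level, and Htt and Rpl22. The members and lists were chosen with earlier results of these data known. Counts were simulated with the mean levels of the ND libraries and the library sizes (15092 genes). On these the NZ against ND test recovered 47 of 67 genes changed 1.5-fold, 59 of 67 changed 2-fold and 65 of 66 changed 4-fold, with 3 false calls. The changed genes were picked only above a minimum expected count. The simulated libraries were drawn independently, with none set apart as NZ replicate 2 is, so these rates are not carried over to the data. No pair of the 8 libraries held identical counts or agreed within sampling noise (chi-square per degree of freedom at least 17.5). Alternatives were other scalings (RLE, upper quartile), DESeq2 1.42.0, other filters, a fit without robust estimation or of the ND and NZ libraries alone, a replicate block and each library left out. The fit without Rn45s and the neuronal sums without NZ replicate 2 were added after seeing the data. Promoter windows are RefSeq's (GRCm38.p6). No protein sequences or genome were used here. A few genes that the rule or the lists would name are not reported here.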

Additional observations from a re-analysis of the deposited data

Results flagged for a closer look

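In 14 of 192 groups of 4 libraries checked, 1 library lay apart from the other 3 by Dixon's criterion, which chance meets in about 5% of groups. NZ replicate 2 did so for 4 genes, with 24.7 CPM in Rps14, 4.59 CPM in Tspan4 and 15.6 CPM in Pgk1, each lower than in the other NZ libraries, and 25.7 CPM in Th, tyrosine hydroxylase, above them. ND replicate 3 was above the other ND libraries in Dusp4, with 6.87 CPM, and in Slc7a5, with 32.6 CPM. ND replicate 1 was below them in Cyp2j6, with 63.2 CPM, and above them in the share of Rn45s, with 0.314%, and in the SD of its deviation from the other ND libraries, 0.21. ND replicate 2 was above them in Krt25, with 4.15 CPM, and in the summed interneuron genes, with 1150 CPM. ND replicate 4 had 1100 CPM of Rpl22, the symbol of the gene tagged in the RiboTag method, against 454 to 543 CPM in the other ND libraries. NZ replicate 3 had 115 CPM of Slc17a7, the vesicular glutamate transporter of cortical neurons, against 12.9 to 24.9 CPM in the other NZ libraries, and NZ replicate 4 was above them in Got2, with 165 CPM.

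For 28 of the 36 genes checked, the ZFP contrast of the MG set differed from that of the n_ZFP_a_Rpl set in 1 model at an adjusted p below 0.05 (edgeR's quasi-likelihood test). The genes were chosen on the MG contrast, 1 side of this difference, so nothing is read from the count. The difference of the log2 fold changes, MG less n_ZFP_a_Rpl, was negative for Krt25 -3.35, Txlnb -2.15, Olfml2a -1.78, Rn45s -1.66, Tmem181a -1.51, Prelp -1.21, Notch4 -1.14, Cyp2j6 -1.13, Nexn -1.08, Plxdc1 -1.01, Cetn4 -0.98, Itga7 -0.93, Npas2 -0.74, Ncan -0.62 and Fkbp1a -0.56. It was positive for Tceal6 4.02, Npsr1 3.89, Mfsd7a 1.82, Dpy19l1 1.14, Tspan4 1.05, Brdt 0.96, Phlda3 0.92, Piezo1 0.92, Rps14 0.78, Gas6 0.69, Sesn2 0.65, Ftl1 0.56 and Slc5a3 0.38. Of those, Tceal6 and Brdt were lower with the ZFP in both sets and had a smaller fall in the MG set.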

How the results depend on the processing

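Of the results with all libraries, 565 genes higher and 516 lower in NZ, the counts stayed within 1.5 times under RLE and upper-quartile scaling, other filters, the fit of ND and NZ alone, the fit without robust estimation and without Rn45s. DESeq2 gave 1013 and 1206, and leaving out 1 library gave 5 to 994 and 14 to 1063. Replicate numbers 2, 3 and 4 occur in both groups, and the deviations of libraries sharing a number correlated at 0.205, 0.292 and -0.198, so the numbers were not taken to pair the samples. A replicate block left 0 genes higher and 3 lower in NCAR, 0 and 6 in R6/2, and 295 and 911 for the difference between sets (646 and 1515 without it). In these fits number 5 occurs only in NZ, so the block takes NZ replicate 5 out of the NCAR contrast. Leaving out that library alone left 50 genes called in NCAR. For R6/2 DESeq2 gave 200 higher and 156 lower. For the difference between genotypes DESeq2 gave 32 and 20, and leaving out 1 library gave 0 to 1 higher and 0 lower. For the n_ZFP_a_Rpl set DESeq2 gave 576 and 297. The difference between sets had 998 lower genes with RLE scaling, and with 1 library left out 410 to 876 higher and 796 to 2105 lower. The cause of these differences was not tested.

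Htt changed sign to 0.0046 with upper-quartile scaling, to 0.0076 with a minimum of 5 CPM, and ranged from -0.059 to 0.048 with 1 library left out. Slc17a7, which was not called, ranged from -0.41 without NZ replicate 3 to 1.11 without NZ replicate 4. Of the 68 named genes called, 67 were called by DESeq2, 66 with RLE scaling, 60 in the fit of ND and NZ alone, 57 with no filter, 3 with the block, and 18 to 63 with 1 library left out, and none changed sign. With 4 libraries a group, 1 of them apart, small differences of the kind seen here are at the limit of what can be called, and genes near 1 CPM are limited by depth.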

Other observations

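Among gene lists not described above, 17 glucocorticoid-response genes held 2 called higher in NZ and 0 lower, beside 3.68% and 3.36% of all genes (median 0.23). The 2 were Cdkn1a, which is also a p53 target, and Ddit4, an inhibitor of mTORC1, at 20.8, 21.6, 24.6 and 24.2 CPM in ND and 25.3, 33.6, 27.6 and 40.4 CPM in NZ (0.48 ± 0.14, adjusted p = 0.0467). Without NZ replicate 2 or NZ replicate 4, 6 and 5 members of the list were called, without ND replicate 4 1, and without any one of the other 5 libraries 0. Over all genes the fit without NZ replicate 2 called 994 higher and 1063 lower of 15459. Of 16 cytokine and NF-kB genes 1 was called higher and 0 lower, beside the same shares (median 0.39). It was Relb, a subunit of the noncanonical NF-kB pathway, at 3.66, 3.18, 3.74 and 3.83 CPM in ND and 5.05, 6.43, 5.54 and 5.81 CPM in NZ (0.67 ± 0.15, adjusted p = 0.0278; past the threshold in 3 of the 8 fits with a library left out). Of 18 clock genes Npas2 was the one called, lower in NZ, beside 3.36% of all genes called lower. The 22 activity-regulated genes held 0 calls (0 higher and 1 lower at an unadjusted p below 0.05, and 0 higher and 0 lower by DESeq2) and a median of 0.29, and Fosl2, a subunit of AP-1, stood at 28.9, 32, 74.3 and 36.7 CPM in ND and 38.9, 99.7, 80.7 and 86.5 CPM in NZ (0.83 ± 0.46, adjusted p = 0.263), with the groups overlapping. The 21 complement and antigen presentation genes held 0 calls (0 higher and 0 lower at an unadjusted p below 0.05, and 0 higher and 0 lower by DESeq2; median 0.32). Of all genes 26.6% had an unadjusted p below 0.05, and DESeq2 called 1013 higher and 1206 lower of 19619.

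Other cell types showed few calls, beside 3.68% of all genes called higher and 3.36% called lower. Their counts at an unadjusted p below 0.05 stand beside 26.6% of all genes, and those of DESeq2 beside 1013 higher and 1206 lower of 19619. Of 10 oligodendrocyte precursor genes Matn4, a matrix adaptor protein, was called higher, at 3.07, 2.23, 2.84 and 1.82 CPM in ND and 3.6, 8.69, 7.02 and 3.89 CPM in NZ (1.23 ± 0.30, adjusted p = 0.0314; past the threshold in 2 of 8 fits), and Olig1, a transcription factor of this lineage, was at 30.2 ± 3.38 and 45 ± 7.09 CPM (0.58 ± 0.22, adjusted p = 0.114). Microglial genes held 0 calls of 16 (2 higher and 0 lower at an unadjusted p below 0.05, and 1 higher and 0 lower by DESeq2), endothelial and mural genes 0 of 14 (0 higher and 1 lower at an unadjusted p below 0.05, and 0 higher and 0 lower by DESeq2), interneuron genes 0 of 12 (3 higher and 0 lower at an unadjusted p below 0.05, and 1 higher and 0 lower by DESeq2), cortical excitatory genes 0 of 10 (1 higher and 0 lower at an unadjusted p below 0.05, and 1 higher and 0 lower by DESeq2) and choroid plexus and ependymal genes 0 of 8 (0 higher and 0 lower at an unadjusted p below 0.05, and 0 higher and 0 lower by DESeq2). The calls behind these counts of 0 are those of edgeR's quasi-likelihood test. Ccdc153, an ependymal gene, stood at 11.1, 12.4, 12 and 14.6 CPM in ND and 1.05, 9.53, 9.36 and 12.1 CPM in NZ (-0.64 ± 0.70, adjusted p = 0.595), with NZ replicate 2 far below the other 7 libraries. Th stood at 12, 16, 18.1 and 15.7 CPM in ND and 25.7, 20.3, 20 and 20.1 CPM in NZ (0.48 ± 0.15, adjusted p = 0.0652), where every NZ library was above every ND library.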
